A study of Mus musculus with 8 samples.

Results

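Myc and 36 genes of ribosome biogenesis were followed in CD4+ T cells (helper T cells) of the mouse spleen. The genes were taken by name: the transcription factor MYC, nucleolar and ribosomal RNA processing factors, and subunits of RNA polymerase I. They are 37 of the 54532 genes listed in the deposited count table, and all 37 were among the 13981 genes with enough counts to be tested. The cells were from wild-type (WT) animals and were given either vehicle or dimethyl succinate, in both groups for 3 days. The file headers name the control DMSO. The 4 vehicle libraries, Con1 to Con4, are called vehicle replicates 1 to 4. The 4 dimethyl succinate libraries, Succ1 to Succ4, are called dimethyl succinate replicates 1 to 4. The ester can enter cells, where it releases succinate, a metabolite of the tricarboxylic acid cycle. Strain, age, sex, the dose of the ester, any stimulation of the cells and the sorting method are not given in the sources used here, nor whether each library had its own animal or culture. The p-values therefore cover the spread between these libraries, which may be technical. The comparison asked which transcripts differ after exposure to the ester.

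Ribosomes are built in the nucleolus, where RNA polymerase I transcribes the ribosomal RNA precursor. Small nucleolar ribonucleoproteins (snoRNPs) modify that precursor, and assembly factors cut and fold it into the small (40S) and large (60S) subunits. MYC, which binds E-box DNA together with its partner MAX, is known to raise transcription of these genes, and T cells leaving quiescence induce MYC and enlarge their nucleoli before they divide.

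Total counts ran from 13407295 to 16688854 per library. Transcripts of CD4+ T cells were abundant: the summed level of Cd3d, Cd3e, Cd3g, Trac, Cd4, Cd28 and Lck was 1699 to 2166 CPM (counts scaled to library size) under vehicle and 2071 to 2127 under dimethyl succinate. Summed levels under vehicle and under dimethyl succinate were 5.50 to 5.98 and 5.85 to 7.54 CPM for 2 CD8 T cell markers, 3.60 to 4.26 and 3.61 to 5.01 for 5 B cell markers, and 10.6 to 13.9 and 8.50 to 12.9 for 4 natural killer cell markers, most of it Eomes. They were 1.27 to 1.76 and 1.90 to 3.14 CPM for 5 monocyte and macrophage markers, which did not overlap, and 0.598 to 1.91 and 1.16 to 2.33 for 5 erythroid markers. The 4 stromal and endothelial markers summed to 28.1 to 39.5 and 33.7 to 38.5 CPM, nearly all of it Pecam1, and Cdh5, the endothelial cadherin, had 0 counts in all 8 libraries. Vehicle replicate 4 stood apart: mitochondrial transcripts made up 0.252% of its counts and 1.16% to 1.48% in the other 7, and its summed T cell marker level was the lowest of the 8. Log2 fold changes computed without it are therefore also given.

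The ribosome biogenesis transcripts were expressed at high levels in both groups. On the authors' length-scaled FPKM values (fragments scaled to gene length and library size), each of the 37 lay above the median of the tested genes, 35 above the 75th percentile and 21 above the 90th. Npm1, which encodes the nucleolar chaperone nucleophosmin, was highest, with 514 ± 105 FPKM in the vehicle group and 430.2 ± 48.2 after dimethyl succinate (SD, n = 4). Ncl, which encodes nucleolin, an RNA-binding protein of the nucleolus, followed at 151 ± 27.1 and 133 ± 9.63 FPKM. Myc was at 133 ± 19.7 and 137 ± 3.29 FPKM, within the spread of Ncl. Ddx21, a nucleolar RNA helicase, and Noc2l, a 60S assembly factor, were next at 112 ± 8.92 and 108 ± 17.5 FPKM under vehicle, and these 2 did not differ beyond their spread. The lowest were Polr1a, the largest subunit of RNA polymerase I, at 15.9 ± 1.98 and 16.8 ± 0.163 FPKM, and Wdr12, a 60S factor, at 7.21 ± 0.578 and 7.14 ± 0.174. Both have long gene models of 11871 and 11955 bases, by which FPKM divides. The order at the top depends on length as well, since Ncl has 10188 bases, Npm1 2665 and Myc 2717. In CPM, which does not divide by length, Ncl had 1541 ± 272 in the vehicle group, Npm1 1373 ± 278 and Myc 363 ± 54.4 (SD, n = 4). Together the 37 genes took 0.924 ± 0.0754% of all counts in the vehicle group and 0.886 ± 0.0283% after dimethyl succinate (SD, n = 4), and the vehicle share was 0.887 ± 0.00800% without replicate 4 (n = 3).

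**Figure D1:**
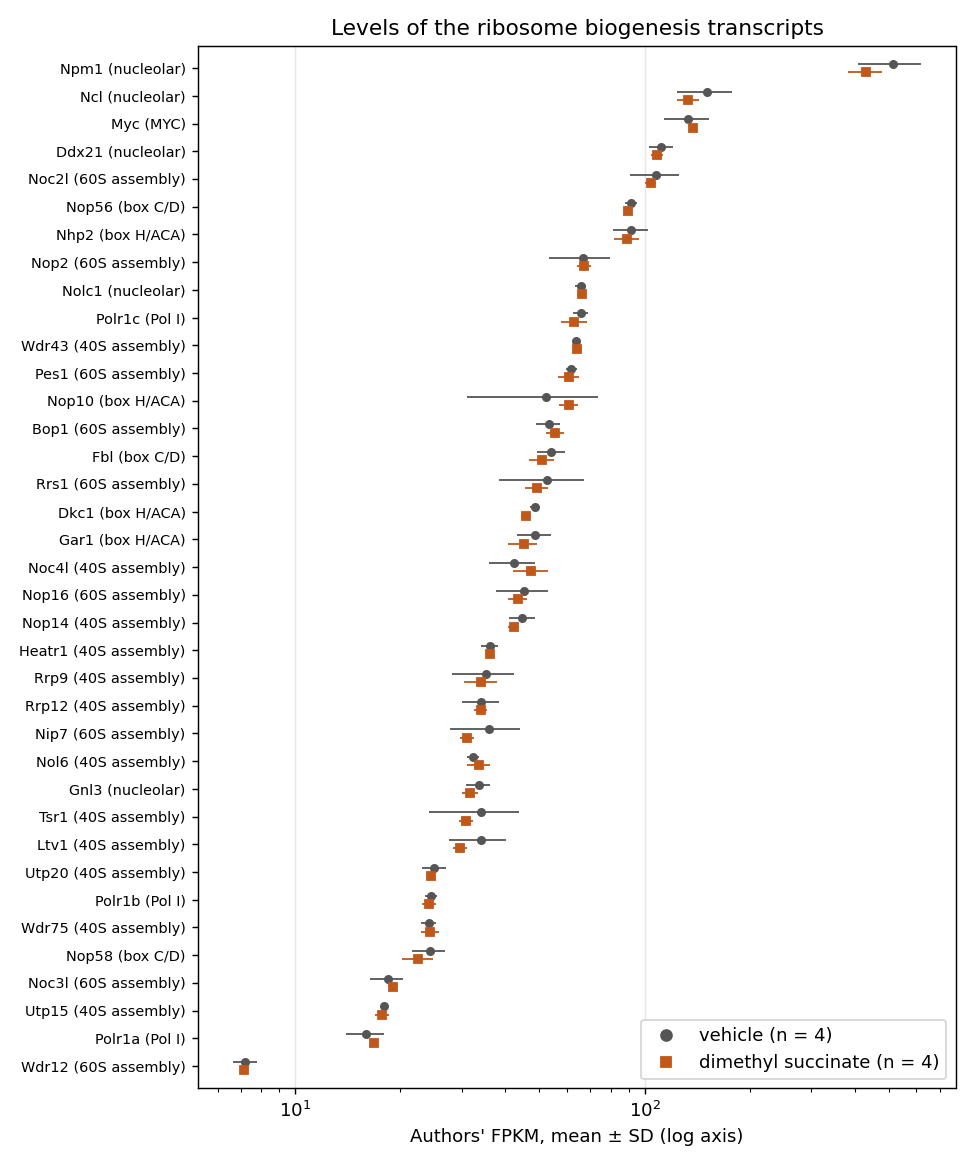
Authors' FPKM of each of the 37 transcripts on a log axis, as mean ± SD of 4 vehicle (grey circles) and 4 dimethyl succinate libraries (orange squares), ordered by level with the role in brackets. Npm1 stands highest at 514 and 430.2 FPKM and Wdr12 lowest at 7.21 and 7.14.

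Promoter sequences were looked at for the canonical E-box, CACGTG, which reads the same on both strands. The RefSeq table of promoters (GRCm38.p6, 250 bases before to 50 after each start) held 30 of the 37 genes, and 6 of these, 20%, had the hexamer: Ltv1, Nop2, Pes1, Tsr1, Utp20 and Wdr43. It was present in 8.09% of all 27025 genes held there, which were not limited to the 13981 genes tested here or matched for level. With CACGCG or CGCGTG, each the reverse complement of the other, accepted as well, the shares were 50% of the 30 genes and 17.2% of all genes. A match is a description of the letters and not of MYC binding. The stretches of 4 genes whose hexamer lies at or before base 30 after the start are shown, from 100 bases before the start to the start or to the end of the hexamer, because they show where the hexamer lies. The hexamer is in capitals.
Nop2, chr6:125131783-125131882, plus strand: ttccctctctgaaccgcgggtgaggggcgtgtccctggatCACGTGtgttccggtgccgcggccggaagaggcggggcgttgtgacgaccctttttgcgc
Pes1, chr11:3963875-3963982, plus strand: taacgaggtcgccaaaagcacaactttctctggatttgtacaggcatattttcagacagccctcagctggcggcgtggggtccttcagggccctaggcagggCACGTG
Tsr1, chr11:74897980-74898109, plus strand: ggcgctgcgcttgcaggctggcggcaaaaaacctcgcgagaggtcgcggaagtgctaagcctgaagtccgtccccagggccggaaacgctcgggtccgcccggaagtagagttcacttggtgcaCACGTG
Wdr43, chr17:71616115-71616237, plus strand: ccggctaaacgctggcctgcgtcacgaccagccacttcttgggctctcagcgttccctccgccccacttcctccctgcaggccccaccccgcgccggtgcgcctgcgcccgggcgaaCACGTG
In Nop2 the hexamer ends 55 bases before the start, and in Pes1, Wdr43 and Tsr1 it begins 3, 18 and 25 bases into the transcript.

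Some of the genes host small nucleolar RNA genes. In the GENCODE M21 annotation (GRCm38), 7 of the 37, 18.9%, hold snoRNA genes inside their span on the same strand, against 1.68% of the 11667 protein-coding genes tested. They hold 21 snoRNA genes in all: 5 in Nop56, 4 in Nop58, 3 each in Wdr43, Ncl and Gnl3, 2 in Tsr1 and 1 in Dkc1. Small nucleolar RNAs guide the modification of ribosomal RNA, and several of these hosts encode the proteins that bind them.

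No ribosome biogenesis transcript passed the test between the groups. Of the 37, 0 had an adjusted p below 0.05 in edgeR's quasi-likelihood test, where 0% of all 13981 genes did, and the smallest adjusted p of the 37 was 0.802. At an unadjusted p below 0.05, 0 of the 37 were higher and 0 lower, against a background of 2.93% and 2.83% of all genes, or 5.76% in either direction. DESeq2 and limma-voom also called 0 of the 37 and had 0 at an unadjusted p below 0.05. Levels of the groups were fully separated in 0 of the 37 in either direction, against a background of 2.5% of all genes higher and 2.32% lower. The log2 fold change was above 0 for 13 and below 0 for 24, with a median of -0.030, and over all genes tested it was above 0 for 49.6% with a median of -0.0011. Without vehicle replicate 4 it was above 0 for 21 of the 37 with a median of 0.021, and 14 of the 37 changed sign.

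The intervals limit how large a difference in scaled counts between these libraries could be. They rest on the same spread between libraries as the p-values and are not adjusted for the number of genes. The 95% interval of the log2 fold change lay inside a 1.5-fold change in either direction for 36 of the 37, and inside a 1.25-fold change for 29. Of all genes tested, 71.7% and 42.9% did so. All 37 lay above the median FPKM of the genes tested, and no set of genes matched for level was compared. The exception at 1.5-fold was Nop10, with an interval from -0.54 to 0.97. Each gene had at least 327 counts in every library.

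**Figure D2:**
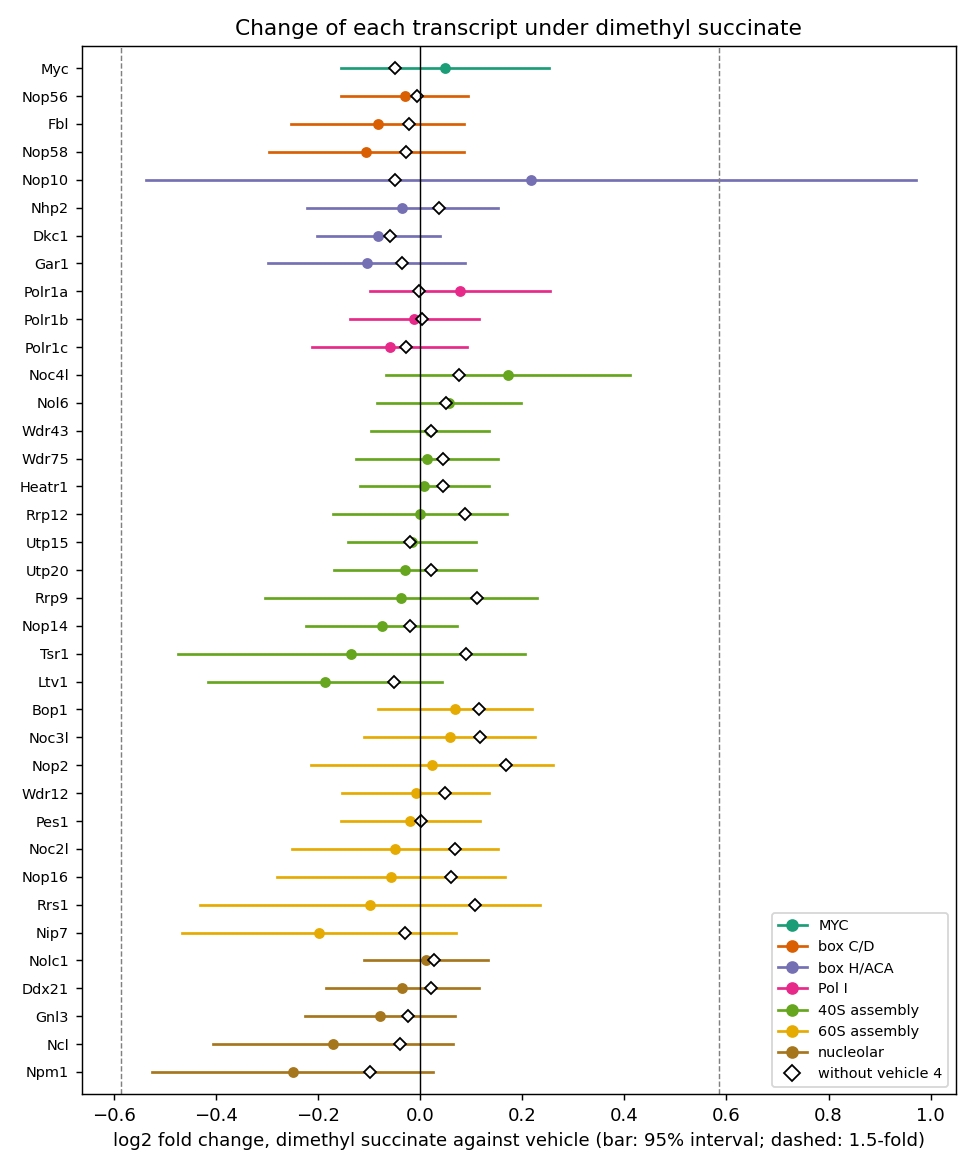
Log2 fold change of each transcript under dimethyl succinate against vehicle (filled points, 8 libraries) with its 95% interval, coloured by role, and the same without vehicle replicate 4 (open diamonds). Every interval holds 0, and of the 37 only that of Nop10, from -0.54 to 0.97, crosses the dashed lines at a 1.5-fold change.

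Myc (ENSMUSG00000022346, chr15:61985391-61990374, plus strand, GRCm38) had 382, 372, 413 and 286 CPM in vehicle replicates 1 to 4 and 382, 380.1, 363 and 379 CPM in dimethyl succinate replicates 1 to 4. The 4 dimethyl succinate libraries and vehicle replicates 1 and 2 lay close together, vehicle replicate 3 was the highest and vehicle replicate 4 the lowest, so the groups overlapped. The group means were 363 ± 54.4 and 376 ± 9.01 CPM (SD, n = 4). On the log2 scale they differed by 0.049 ± 0.094 (SE, edgeR adjusted p 0.915). An exact two-sided permutation test of log2 CPM gave p = 0.8286, where 4 against 4 cannot go below 0.0286. Without vehicle replicate 4 the log2 fold change was -0.049, with an exact permutation p of 0.343.

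The partners and antagonists of MYC were looked at next. Of 14 such genes, 12 were tested. At an unadjusted p below 0.05, 1 was higher and 0 were lower, against a background of 2.93% and 2.83% of all genes. The median log2 fold change of the 12 was 0.0056, or -0.025 without vehicle replicate 4. Max, the partner through which MYC binds DNA, had 139 ± 14.9 CPM in the vehicle group and 142 ± 4.97 after dimethyl succinate (SD, n = 4), a log2 difference of 0.027, or -0.047 without vehicle replicate 4. Mxd1, Mxd4 and Mnt, which encode repressors that compete for MAX, had log2 fold changes of -0.071 ± 0.072, -0.059 ± 0.062 and 0.0093 ± 0.082 (SE), or -0.034, -0.063 and 0.00096 without that library. The 1 gene at that p was Mlxip, which encodes MondoA, a glucose-sensing factor that pairs with MLX. For Mlxip the log2 difference was 0.16 ± 0.067 (SE, edgeR adjusted p 0.802), or 0.11 without that library. Its groups did not overlap, with 95.4 to 111.3 CPM in the 4 vehicle and 111.4 to 124 CPM in the 4 dimethyl succinate libraries. Of the 12, 1 was higher and 0 lower with no overlap, against a background of 2.5% and 2.32% of all genes. Mycn, a paralog of Myc, was rare, with 14 to 55 counts per library. It had the widest difference of this list, -0.63 ± 0.35 on the log2 scale (SE, 95% interval -1.39 to 0.13, edgeR p 0.0954, adjusted p 0.802), or -0.26 without vehicle replicate 4.

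MYC targets outside the ribosome were measured as well. All 28 were tested. At an unadjusted p below 0.05 the count was 0 higher and 0 lower, against a background of 2.93% and 2.83% of all genes. The median log2 fold change of the 28 was -0.029, or 0.022 without vehicle replicate 4. Odc1, the rate-limiting enzyme of polyamine synthesis, had 843 ± 219 CPM in the vehicle group and 799 ± 50.3 after dimethyl succinate (SD, n = 4). Its log2 fold change was -0.077, or 0.12 without vehicle replicate 4. Cad, the enzyme that starts pyrimidine synthesis, stood at 412 ± 43.7 and 413 ± 18.3 CPM, with log2 differences of 0.0049 and, without that library, 0.083. The 3 with the smallest unadjusted p were Ppat, the first enzyme of purine synthesis, at -0.12 ± 0.078 (SE), Tert, the catalytic subunit of telomerase, at 0.18 ± 0.12, and Slc1a5, a glutamine transporter, at 0.087 ± 0.061 on the log2 scale. These 3 were at -0.057, 0.14 and 0.057 without vehicle replicate 4.

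The 3 RNA polymerase I subunits among the 37 genes differed by less than the spread between replicates. Polr1a had 206, 187, 209 and 157 CPM in vehicle replicates 1 to 4 and 203, 199, 202 and 199 CPM in dimethyl succinate replicates 1 to 4. Its dimethyl succinate values spanned a narrow range inside that of the vehicle group, and vehicle replicate 4 was the lowest of the 8. Polr1b, the second largest subunit, had 143, 135, 146 and 147 CPM against 148, 134, 139 and 145 CPM. Polr1c, a subunit that RNA polymerase III also uses, had 147, 145, 150.3 and 160.4 CPM against 162, 138, 133 and 145 CPM. The log2 fold changes of Polr1a, Polr1b and Polr1c were 0.078 ± 0.082, -0.011 ± 0.059 and -0.060 ± 0.070 (SE), or -0.0021, 0.0031 and -0.028 without vehicle replicate 4.

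Among 12 other genes of RNA polymerase I transcription, an unadjusted p below 0.05 was reached by 1 that was lower and 0 that were higher. The background was 2.83% of all genes lower and 2.93% higher. The lower gene was Taf1d, which encodes a subunit of the SL1 promoter factor. It stood at 163 to 179 CPM in the vehicle libraries and 133 to 161 CPM in the dimethyl succinate libraries, which did not overlap. The log2 difference was -0.16 ± 0.071 (SE, edgeR adjusted p 0.802), or -0.14 without vehicle replicate 4. Rrn3, the initiation factor TIF-IA, did not overlap either, with 112.6 to 117.8 CPM under vehicle and 118.4 to 134 under dimethyl succinate. Its log2 fold change was 0.11 ± 0.059, and also 0.11 without that library. Of the 12, 1 was higher and 1 lower with no overlap, against a background of 2.5% and 2.32% of all genes. Twistnb, an RNA polymerase I subunit, was at -0.15 ± 0.078, or -0.17 without that library, where its edgeR p was 0.0205 (adjusted p 0.481). In that fit 2 of the 12 were lower and 1 was higher at an unadjusted p below 0.05. The background there was 4.12% of all genes lower and 4.43% higher. Ubtf, the upstream binding factor of ribosomal DNA, had means of 296 ± 50.7 and 281 ± 13.5 CPM (SD, n = 4). The log2 difference was -0.076, or 0.049 without vehicle replicate 4.

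The box C/D snoRNP proteins carry out methylation of ribosomal RNA. Fbl, which encodes the methyltransferase fibrillarin, had 211, 228, 218 and 258 CPM in vehicle replicates 1 to 4 and 238, 199, 204 and 223 CPM in dimethyl succinate replicates 1 to 4. Nop58, a core protein of the same particle, had 249, 252, 244 and 303 CPM against 211, 247, 247 and 270.0 CPM. Nop56, which pairs with Nop58, had 363, 372, 379 and 395 CPM against 379.9, 357, 366 and 376 CPM. In each of the 3 genes of this group vehicle replicate 4 was the highest of the 8 libraries, and the groups overlapped. Log2 fold changes were -0.083 ± 0.079 for Fbl, -0.11 ± 0.088 for Nop58 and -0.030 ± 0.057 (SE) for Nop56, or -0.021, -0.027 and -0.0070 without that library. Of their 50-base windows, Fbl shares 19.7% and Nop56 18.7% with transcripts of other genes.

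The box H/ACA snoRNP proteins carry out pseudouridylation. Dkc1, which encodes the pseudouridine synthase dyskerin, had 199, 195, 201 and 210.2 CPM in vehicle replicates 1 to 4 and 193, 183, 187 and 198 CPM in dimethyl succinate replicates 1 to 4. Its groups overlapped narrowly, and its log2 fold change was -0.082 ± 0.056 (SE), or -0.060 without vehicle replicate 4. Nop10 (chr2:112261926-112263269, plus strand), the smallest protein of the particle, had 68.2, 68.4, 74.2 and 22.7 CPM against 66.1, 70.1, 62.7 and 72.6 CPM. Its level in vehicle replicate 4 was far below all 7 others, which lay close together, and the vehicle coefficient of variation was 41.0%, the largest of the 37. Its log2 fold change was 0.22 ± 0.32 (SE) with that library and -0.049 without it. Gar1, another protein of the particle, had 74.6, 85.1, 79.4 and 95.7 CPM against 79.7, 71.5, 72.5 and 87.7 CPM. Nhp2, the last of the 4, had 92.5, 104, 105 and 121 CPM against 112, 99.5, 92.4 and 108 CPM. Both were highest in vehicle replicate 4, and their groups overlapped. Log2 differences were -0.10 ± 0.089 for Gar1 and -0.035 ± 0.087 (SE) for Nhp2, or -0.035 and 0.037 without that library.

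Factors of the small-subunit processome and of 40S assembly had log2 fold changes above 0 for 6 of 12, and for 9 of 12 without vehicle replicate 4. Their medians were -0.0079 and 0.044. Ltv1, needed for export of the 40S precursor, had 67.5, 74.6, 73.6 and 99.97 CPM in vehicle replicates 1 to 4 and 65.7, 69.5, 68.6 and 73.7 CPM in dimethyl succinate replicates 1 to 4. Apart from vehicle replicate 4 the groups lay in the same range, and the log2 fold change was -0.19 ± 0.11 (SE), or -0.051 without that library. Noc4l, which acts with Nop14 in the 40S precursor, had 124, 108, 121 and 87.0 CPM against 145, 118, 118 and 115 CPM. Dimethyl succinate replicate 1 was the highest and vehicle replicate 4 the lowest, and the log2 fold change was 0.17 ± 0.11 (SE), or 0.075 without vehicle replicate 4. Nop14 had 117, 113, 124 and 136 CPM against 121, 112, 113 and 119 CPM. Nol6, a processome component, had 172, 163, 178 and 168 CPM against 196, 165, 173 and 173 CPM. The groups of both overlapped, with vehicle replicate 4 the highest library for Nop14 and dimethyl succinate replicate 1 for Nol6. Log2 differences were -0.075 ± 0.068 for Nop14 and 0.057 ± 0.065 (SE) for Nol6, or -0.019 and 0.052 without vehicle replicate 4.

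The remaining 8 genes of this role had larger p-values. Utp15, Wdr43, Wdr75 and Heatr1, which belong to the subcomplex that joins the precursor first, had log2 fold changes from -0.016 to 0.019, or -0.019 to 0.044 without vehicle replicate 4. Wdr43, given here because of its small spread, had 225, 216, 220.2 and 220.5 CPM in vehicle replicates 1 to 4 and 216, 232, 221 and 224 CPM in dimethyl succinate replicates 1 to 4, and its vehicle coefficient of variation of 1.67% was the smallest of the 37. Utp20, Rrp9, which binds the U3 snoRNA, and Rrp12, an export factor, were at -0.030 ± 0.065, -0.038 ± 0.12 and 0.00032 ± 0.079 (SE), or 0.022, 0.11 and 0.087 without vehicle replicate 4. Tsr1, a late 40S maturation factor given here because of its value in vehicle replicate 4, had 115, 109, 112 and 187 CPM against 115, 120.1, 114 and 126 CPM. The log2 difference was -0.13 ± 0.15 (SE), or 0.089 without that library. Tsr1 shares 32.3% of its exon bases with Srr, which lies on the other strand. Whether reads were counted by strand is not given in the sources used here, so reads of Tsr1 and Srr may not be separated.

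Factors of 60S assembly had log2 fold changes above 0 for 3 of 9, and for 8 of 9 without vehicle replicate 4. Their medians were -0.019 and 0.069. Nip7, needed for processing of the large-subunit RNA, had 95.6, 98.8, 106 and 149.9 CPM in vehicle replicates 1 to 4 and 99.9, 91.4, 99.9 and 102 CPM in dimethyl succinate replicates 1 to 4. Rrs1, which brings in the 5S particle, had 86.4, 97.7, 97.9 and 152 CPM against 106, 97.0, 92.8 and 109 CPM. Vehicle replicate 4 was the highest library for both genes, and the other 7 overlapped. Log2 fold changes were -0.20 ± 0.12 for Nip7 and -0.098 ± 0.15 (SE) for Rrs1, or -0.030 and 0.11 without it. Noc3l, which pairs with Noc2l in the 60S precursor, had 70.5, 76.6, 64.1 and 82.4 CPM against 74.5, 78.1, 76.4 and 76.7 CPM, with the dimethyl succinate values inside the vehicle range. Noc3l, Noc2l and Nop16 were at 0.058 ± 0.077, -0.049 ± 0.093 and -0.057 ± 0.10 (SE) on the log2 scale, or 0.12, 0.069 and 0.061 without vehicle replicate 4. Noc2l shares 20.9% of its exon bases with Samd11 on the opposite strand.

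Pes1, Bop1 and Wdr12 encode the PeBoW complex, which is required for maturation of the 60S subunit. Bop1 had 155, 144, 159 and 173 CPM in vehicle replicates 1 to 4 and 181, 159, 160.2 and 161 CPM in dimethyl succinate replicates 1 to 4. Pes1, given with its partner, had 183, 182, 189 and 196 CPM against 204, 178, 178 and 179 CPM. For both, dimethyl succinate replicate 1 was the highest of the 8 libraries and the other 3 lay inside the vehicle range or, for Pes1, below it. Log2 fold changes of Bop1, Pes1 and Wdr12 were 0.068 ± 0.070, -0.019 ± 0.063 and -0.0089 ± 0.067 (SE), or 0.12, 0.0021 and 0.048 without vehicle replicate 4. Pes1 shares 23.3% of its 50-base windows with transcripts of other genes.

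Nop2 is given here because of its values, which gave the smallest p of the 37 once vehicle replicate 4 was left out. It encodes a methyltransferase of the large ribosomal RNA and lies at chr6:125131909-125144753 on the plus strand. It had 163, 162, 177 and 238 CPM in vehicle replicates 1 to 4 and 195, 182, 178 and 196 CPM in dimethyl succinate replicates 1 to 4. The 4 dimethyl succinate libraries lay above vehicle replicates 1 to 3 and below vehicle replicate 4. With all 8 libraries the log2 fold change was 0.023 ± 0.11 (SE). Without vehicle replicate 4 it was 0.17, with an edgeR p of 0.00336 (adjusted p 0.268). Bop1 was the other gene past an unadjusted p of 0.05 in that fit, at 0.12 with an adjusted p of 0.563 in edgeR's test. That makes 2 of 37 higher and 0 lower at that p, against a background of 4.43% of all genes higher and 4.12% lower. After adjustment 0 of the 37 were called there, against a background of 0.197%. Without vehicle replicate 4 the groups did not overlap, higher, for 1 of the 37, Nop2, against a background of 4.9%, and lower for 0, against 4.71%.

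**Figure D3:**
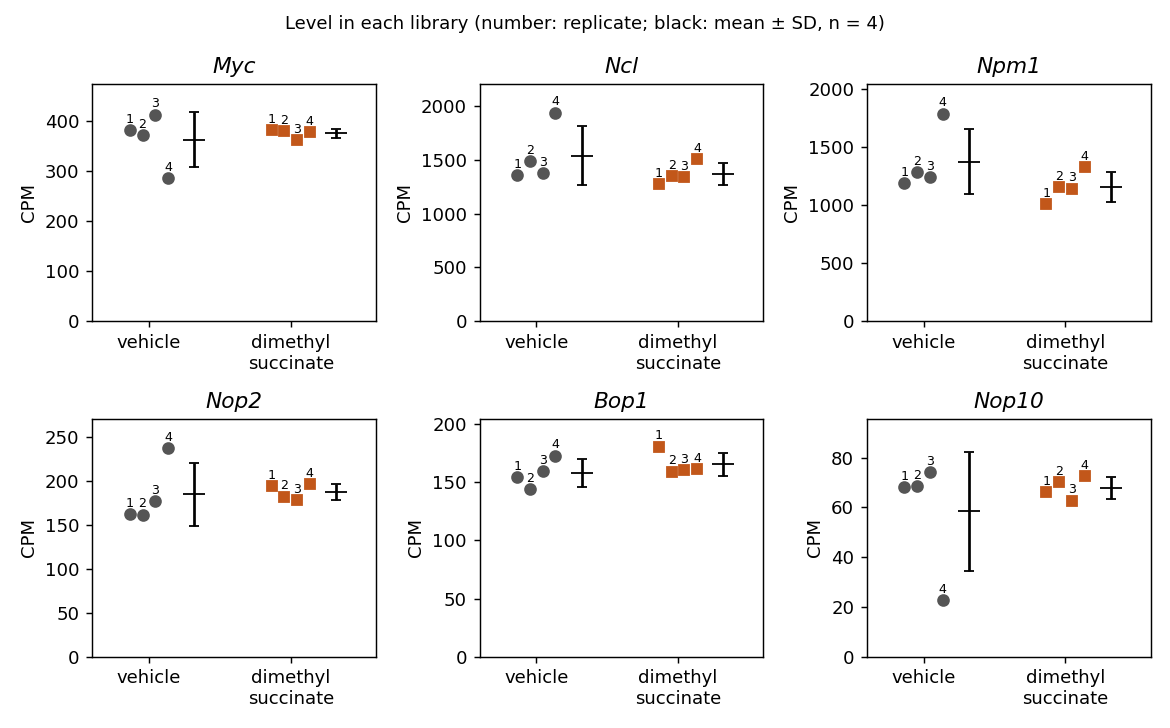
CPM of 6 transcripts in each library (grey circles, vehicle; orange squares, dimethyl succinate; numbers, replicates), with the mean ± SD of 4 in black and each axis starting at 0. Vehicle replicate 4 is the highest for Ncl (1941), Npm1 (1786) and Nop2 (238) and the lowest for Myc (286) and Nop10 (22.7).

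Among the abundant nucleolar proteins, Npm1 and Ncl were highest in vehicle replicate 4. Npm1 (chr11:33152287-33163206, minus strand) had 1186, 1283, 1239 and 1786 CPM in vehicle replicates 1 to 4 and 1006, 1152, 1140.0 and 1323 CPM in dimethyl succinate replicates 1 to 4. Ncl (chr1:86344719-86359400, minus strand) had 1358, 1488, 1379 and 1941 CPM against 1279, 1350.5, 1338 and 1512 CPM. For both genes dimethyl succinate replicate 4 was the second highest library and dimethyl succinate replicate 1 the lowest, so the groups overlapped. The log2 fold change of Npm1 was -0.25 ± 0.13 (SE), with an edgeR p of 0.0716, the smallest of the 37 (adjusted p 0.802). That of Ncl was -0.17 ± 0.11, and without vehicle replicate 4 the values were -0.097 and -0.039. Npm1 shares 24.3% of its 50-base windows with transcripts of 11 other genes, and how reads from them were assigned is not given in the sources used here.

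Ddx21 had 558, 558, 559.6 and 648 CPM in vehicle replicates 1 to 4 and 573, 545, 552 and 597 CPM in dimethyl succinate replicates 1 to 4, with vehicle replicate 4 again the highest. Gnl3, which encodes the GTPase nucleostemin, had 199.5, 194, 200.1 and 228 CPM against 181, 201, 193 and 203 CPM, and its highest library was the same. Log2 differences were -0.035 ± 0.070 for Ddx21, -0.079 ± 0.068 for Gnl3 and 0.011 ± 0.056 (SE) for Nolc1, a chaperone of snoRNPs, or 0.022, -0.024 and 0.028 without vehicle replicate 4. The authors' deposited table gave the 37 genes log2 fold changes from -0.26 to 0.21, with a median of -0.036. One gene, Npm1, in the authors' deposited table had a p below 0.05, at 0.0483, and the smallest adjusted p was 0.8295.

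Vehicle replicate 4 held the highest level of the 8 libraries for 25 of the 37 genes and the lowest for 4, Myc, Nop10, Polr1a and Noc4l. The background was 29% of all genes tested with their highest level in it and 29.4% with their lowest. Against the median of the other 7 libraries its log2 difference ran from -1.59 for Nop10 to 0.70 for Tsr1, with a median of 0.19. The mean log2 deviation of the 37 from their 8-library means was 0.13 in that library and -0.055 to 0.032 in the others. By role it was 0.29 for 60S assembly, 0.27 for abundant nucleolar proteins, 0.19 for box C/D and 0.15 for 40S assembly. It was -0.046 for RNA polymerase I subunits, -0.36 for Myc and -0.20 for box H/ACA proteins. Of the box H/ACA genes only Nop10 was low there, at -1.59 against the median of the other 7 libraries. Dkc1, Nhp2 and Gar1 were at their highest there, at 0.11, 0.22 and 0.27 against that median. In the same library 0.252% of counts were mitochondrially encoded and 6 of 7 T cell markers were at their lowest. The part of RNA quality or cell composition in this was not tested, and in bulk samples fewer cells of a type and less RNA per cell cannot be told apart.

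**Figure D4:**
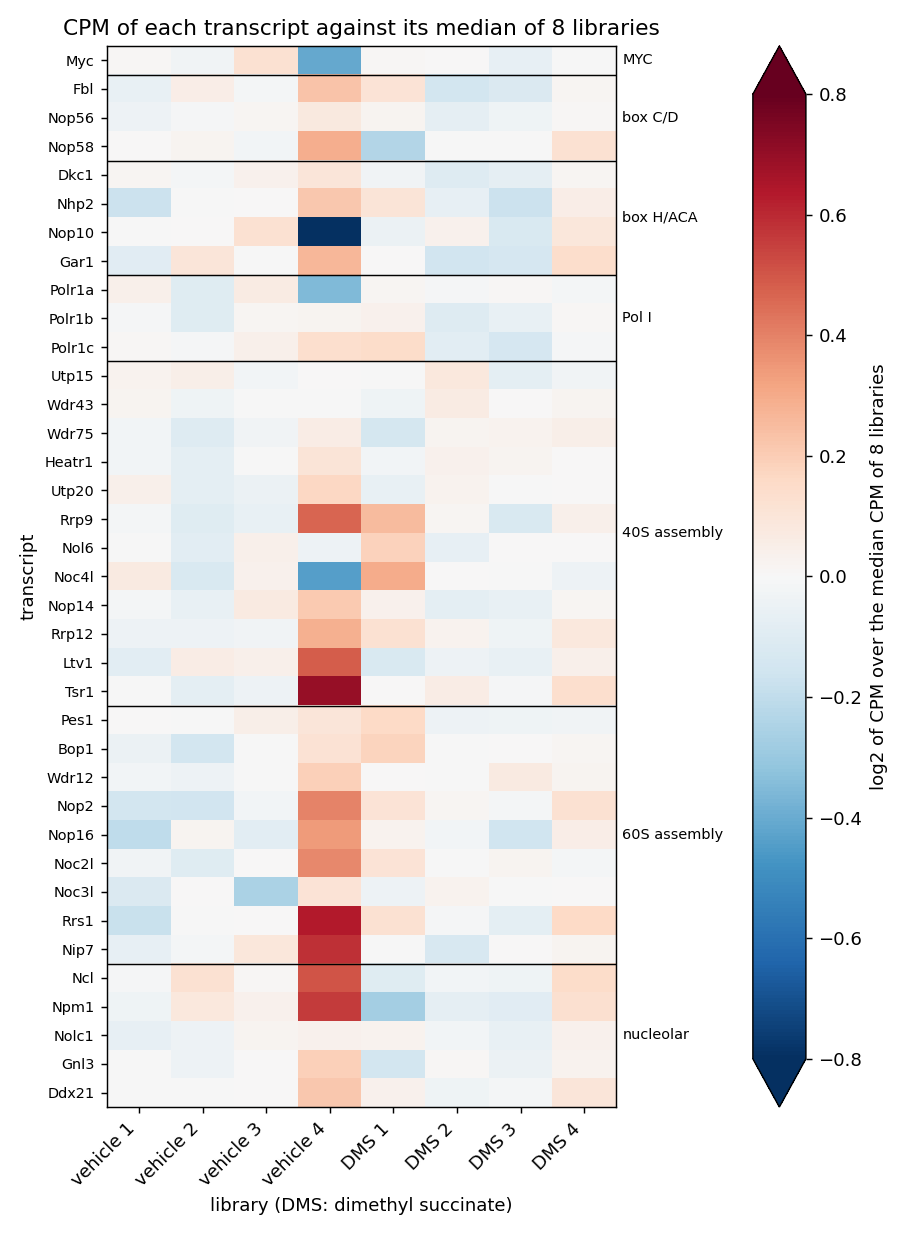
Heat map of the 37 transcripts (rows, grouped by role) in the 8 libraries (columns), coloured by the log2 ratio of CPM to the median CPM of the 8 libraries, with colours capped at 0.8 in either direction. Vehicle replicate 4 is the column that differs, with 25 genes at their highest and Myc, Nop10, Polr1a and Noc4l at their lowest.

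**Figure D5:**
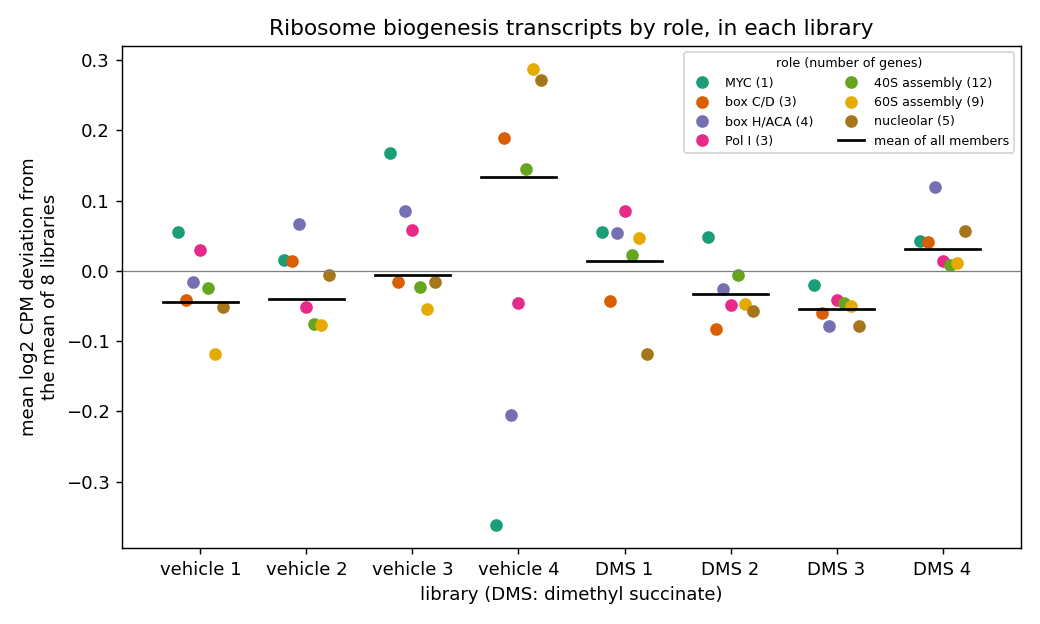
Mean log2 CPM deviation from the 8-library mean for each role group (coloured points, number of genes in brackets) and for all 37 genes (black bars) in each library. The bar stands at 0.13 in vehicle replicate 4 and between -0.055 and 0.032 in the other 7 libraries, which overlap between the groups.

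Among the other 7 libraries the transcripts varied little. The coefficient of variation of CPM had a median over the 37 of 4.74% in the dimethyl succinate group, from 1.01% for Polr1a to 11.5% for Noc4l. The median of all tested genes, which were not matched for level, was 8.63%. In the vehicle group the median over the 37 was 10.6%, or 3.94% without replicate 4.

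Of 102 other genes of ribosome assembly tested in 4 lists, 32 had a log2 fold change above 0 with all 8 libraries and 53 without vehicle replicate 4, with medians of -0.067 and 0.0048. Among 38 further small-subunit processome genes tested, 1 was lower and 1 was higher at an unadjusted p below 0.05. The background was 2.83% of all genes lower and 2.93% higher. The median log2 fold change of the 38 was -0.063, or -0.0011 without vehicle replicate 4. Dhx37, an RNA helicase that releases the U3 snoRNA, was the higher one. It had 74.6 to 87.7 CPM in the vehicle and 92.6 to 107 CPM in the dimethyl succinate libraries, which did not overlap. Of the 38, 1 was higher and 0 lower with no overlap, against a background of 2.5% and 2.32% of all genes. The log2 difference of Dhx37 was 0.23 ± 0.072 (SE, edgeR adjusted p 0.802), and 0.19 without vehicle replicate 4. Dcaf13, the lower one, was at -0.21 ± 0.094, and Utp3 at -0.26 ± 0.13 (SE). Without vehicle replicate 4 they were at -0.10 and -0.087, and Dcaf13 no longer passed an unadjusted p of 0.05 (edgeR p 0.0926).

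Among 40 further 60S assembly genes tested, an unadjusted p below 0.05 was reached by 1 that was lower and 2 that were higher. The background was 2.83% of all genes lower and 2.93% higher. The median log2 fold change of the 40 was -0.072, or 0.0090 without vehicle replicate 4, where 22 of 40 were above 0. Mdn1, the giant ATPase that remodels the 60S precursor, had 349 to 399 CPM in the vehicle and 406 to 436 CPM in the dimethyl succinate libraries, which did not overlap. Its log2 difference was 0.18 ± 0.062 (SE, edgeR adjusted p 0.802), or 0.19 without that library. Of the 40, 1 was higher and 0 lower with no overlap, against a background of 2.5% and 2.32% of all genes. The log2 fold change was 0.18 for Ddx31 and -0.16 for Rsl24d1, or 0.15 and -0.11 without it, where neither passed an unadjusted p of 0.05 (edgeR p 0.0720 and 0.0745). Of 12 genes of the RNA exosome, the nuclease that trims ribosomal RNA, the count at that p was 0 higher and 0 lower. The median log2 fold change was -0.10, or -0.0088 without vehicle replicate 4. Exosc9, a core subunit, stood at 50.1 ± 15.3 and 39.5 ± 1.67 CPM (SD, n = 4), and its vehicle mean was 42.5 ± 1.20 without replicate 4 (n = 3). Exosc9, Exosc2 and Skiv2l2 had log2 fold changes of -0.34 ± 0.16, -0.15 ± 0.094 and -0.11 ± 0.062 (SE), or -0.11, -0.040 and -0.073 without that library.

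Over all 6 further lists, with 142 genes tested, an unadjusted p below 0.05 was reached by 3 that were lower and 4 that were higher, and 0 were called after adjustment, where the background was 2.83% lower and 2.93% higher. Without vehicle replicate 4 that p was reached by 2 that were lower and 11 that were higher, where the background was 4.12% lower and 4.43% higher, and again 0 were called. With all 8 libraries the groups did not overlap for 4 of the 142 that were higher and 1 that was lower, against a background of 2.5% of all genes higher and 2.32% lower. Vehicle replicate 4 was the highest library for 87 of the 142 and the lowest for 20, against a background of 29% and 29.4% of all genes tested.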

How the data were processed

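The authors deposited raw counts per gene and library in 1 table, per the file headers, with FPKM values of the same libraries. Per the file headers the deposited table also held group means, read here as a normalised signal and not used, and log2 fold changes with p-values of dimethyl succinate against vehicle. The deposited gene lengths are in base pairs. HISAT2 2.0.5 is named in the submitters' processing notes; the counting tool, strand setting and build are not given in the sources used here. Of 54495 genes matched by ID, 99.2% shared a start or end with GENCODE M21, so coordinates are read as GRCm38.

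Counts of all 8 libraries, 4 against 4, were tested with edgeR 4.0.16 in R 4.3.3 (filterByExpr, TMM factors, robust quasi-likelihood F test, Benjamini-Hochberg over 13981 genes, two-sided, threshold 0.05), which was tested on simulated data. Standard errors were derived from the F statistic, and the intervals given are 95% intervals. CPM used TMM-scaled library sizes, and log2 CPM for the deviations a prior count of 2. DESeq2 1.42.0, limma-voom 3.58.1, other scaling and filters, a block and each library left out were alternatives.

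The 37 genes and all lists were chosen with earlier results of these data known. Values per library are given for Myc and up to 4 genes of each role with the smallest unadjusted p, and for Wdr43, Tsr1, Nop2 and Pes1, chosen after their values were seen. Of 151 symbols in the 6 further lists, 145 were found and 142 tested. The other 6 are newer or older names of genes already listed.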

Additional observations from a re-analysis of the deposited data

Results flagged for a closer look

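For each of the 37 genes, the outermost value was examined in groups of 4 libraries. Its gap to the nearest value was divided by the range of the 4. A ratio above a set limit was flagged, a criterion that chance meets in about 5% of groups. It was met in the vehicle group for 8 of the 37 genes, 21.6%, and for 11.2% of all 13981 genes, and in the dimethyl succinate group for 6 of the 37, 16.2%, and for 5.69% of all genes. Vehicle replicate 4 was the outlying library each time in its group, and for 1276 of the 1559 genes flagged in that group among all tested. It was high for Nop58 at 303 CPM, Rrp9 at 134, Rrp12 at 174, Tsr1 at 187, Wdr12 at 96.4, Npm1 at 1786 and Ddx21 at 648, and low for Nop10 at 22.7 CPM. In the dimethyl succinate group replicate 1 was high for Noc4l at 145 CPM, Pes1 at 204 and Bop1 at 181, and low for Wdr75 at 109 CPM. Replicate 2 was low for Nip7 at 91.4 CPM and replicate 3 for Myc at 363 CPM.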

How the results depend on the processing

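None of the 37 genes was called after adjustment under any of the 17 alternatives, in which the count stayed at 0. At an unadjusted p below 0.05 there were 1 higher (Nop2) in limma-voom with sample quality weights, 1 lower (Ltv1) with no low-count filter, and 0 to 2 higher and 0 to 3 lower with a library left out. Without vehicle replicate 4 the background at that p was 4.43% of all genes higher and 4.12% lower, and the shares with another library left out are not given here. The number in the titles does not show that libraries are paired: deviations of same-numbered libraries correlated at -0.014, 0.011, 0.056 and 0.13, and 2 of 4 vehicle libraries correlated best with their own number. With that number as a block, 1 gene was higher (Noc4l) and 1 lower (Npm1) at that p, and 1 gene of all was called. Over all genes DESeq2 called 4, limma-voom with sample quality weights 26 and no low-count filter 6, and leaving out a library gave 0 to 28, the last without vehicle replicate 4. Genes above 0 numbered 20 with quality weights and 9 to 21 with a library left out, and the median log2 fold change was 0.0026 with quality weights and -0.046 to 0.021 with a library left out, above 0 only without vehicle replicate 4 among these 8. Groups that did not overlap numbered 0 to 1 higher and 0 to 3 lower with a library left out. Smaller groups separate more easily. Without vehicle replicate 4, 1 of the 37 (Nop2) was higher and 0 lower with no overlap, against 4.9% and 4.71% of all genes. With all 8 libraries those shares of all genes were 2.5% and 2.32%. The 3 lower came with another library left out, for which the share of all genes is not given here. The log2 difference of Myc ran from -0.048 to 0.13. The share of promoters with a motif was 50% with the 2 further hexamers. Single genes whose sign changed did so with quality weights for Myc (-0.038), Utp20 (0.028), Rrp9 (0.045), Tsr1 (0.064), Wdr12 (0.045), Nop16 (0.017), Noc2l (0.043), Rrs1 (0.048), Ddx21 (0.0011), Max (-0.043), Mnt (-0.040), Ubtf (0.0079) and Odc1 (0.076), with DESeq2 and RLE scaling for Rrp12 (-0.0033 in both), and with library totals only for Polr1b (0.0038) and Wdr12 (0.0071). With a library left out the log2 fold changes ran for Myc from -0.049 to 0.12, Nhp2 -0.091 to 0.037, Nop10 -0.049 to 0.35, Polr1a -0.0021 to 0.13, Polr1b -0.038 to 0.014, Utp15 -0.047 to 0.0085, Wdr75 -0.014 to 0.058, Heatr1 -0.018 to 0.044, Utp20 -0.063 to 0.022, Rrp9 -0.11 to 0.11, Rrp12 -0.030 to 0.087, Tsr1 -0.21 to 0.089, Pes1 -0.068 to 0.0021, Wdr12 -0.034 to 0.048, Nop2 -0.036 to 0.17, Nop16 -0.13 to 0.061, Noc2l -0.10 to 0.069, Noc3l -0.0020 to 0.12, Rrs1 -0.19 to 0.11, Nolc1 -0.0046 to 0.030, Ddx21 -0.058 to 0.022, Max -0.047 to 0.065, Mnt -0.076 to 0.057, Ubtf -0.13 to 0.049, Odc1 -0.14 to 0.12 and Cad -0.031 to 0.083. The cause was not tested. Each of the 37 genes had at least 327 counts in every library.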
